A study of Mus musculus with 4 samples.

Results

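Quad-only open regions are the ATAC-seq peaks of mouse quadriceps femoris (Quad) that had no counterpart in extensor digitorum longus (EDL), soleus (Sol) or diaphragm (Dia). ATAC-seq uses the Tn5 transposase, which cuts and tags DNA where chromatin is accessible, so that a peak marks a stretch of open DNA such as a promoter or an enhancer. The members were chosen by the presence and absence of peaks: a Quad peak was kept when no peak of any other list overlapped it or lay within 500 bp of it, edge to edge. This rule kept 10683 of the 40337 Quad peaks, or 26.5% (95% Wilson interval 26.1% to 26.9%), out of 120839 peaks in the 4 lists. The 4 muscles came from wild-type mice of strain C57BL/6 with no transgene and no treatment named in the labels. The study's methods describe young adult males of the substrain C57BL/6J, and the labels give neither age nor sex. Each muscle had 1 library, which the labels call pooled, and no separate replicates were analysed here, and a difference is therefore given with an interval and no p-value. All intervals and limits cover counting error only.

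Muscle fibres differ in contraction speed and fuel use, and these differences are held in place by fibre-specific enhancers and promoters. Fast glycolytic fibres use fast myosins, the calcium pump SERCA1 and the calcium buffer parvalbumin, and burn glycogen. Slow oxidative fibres use slow myosin and rely on mitochondria. EDL and Quad are mostly fast and glycolytic, Sol is rich in slow fibres, and Dia is a respiratory muscle with a mixed composition. Enhancers vary more between tissues than promoters do, and they often lie in introns or far from the gene they act on. MEF2 and the MyoD family, which binds E-boxes, are transcription factors of muscle, and NUR77 is a nuclear receptor that acts on glycolytic genes.

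The Quad list was the longest, and its library was the shallowest by the depth inferred from the scores. If scores were scaled to 10 M tags, the size of 1 step in the scores implied 78.1 M tags for Quad against 99.3 M to 105 M for the other libraries. At this scaling, 25 tags were enough for the weakest Quad peak, against 32 to 36 tags for the weakest peak elsewhere. All tag numbers given below rest on the same assumed scaling. All 20 fast-fibre genes and all 22 glycolysis genes of the lists used below had at least 1 Quad peak, and 15 of 20 slow-fibre genes did. In whole muscle, a larger share of nuclei of a cell type and more open chromatin per nucleus cannot be told apart.

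The sequences of 9 Quad-only peaks are given here because they stand for the groups described below, the strongest members, the promoters and the fibre-type genes. Each is the plus strand of mm10, is 189 bases long, and comes from the RefSeq assembly GRCm38.p6. Peaks that touch an annotated exon or consist of repeats by more than 50% are not printed. Capitals mark an E-box (CAGCTG), a MEF2 site or a NUR77 site (AAAGGTCA or its complement). AP-1 and GR letters, defined below, were also looked for and had no match in these 9 windows. The peaks at Nctc1, Mir22hg, Dusp1 and Gna11 had high scores, and those at Zfp36 and Fhl3 lie in promoters. The peaks at Pvalb, Pax7 and Vgll2 belong to fast-fibre or regulator genes and hold a MEF2 or a NUR77 site. Over all Quad peaks, the E-box was present in 19.1%, MEF2 in 3.44% and NUR77 in 1.35%. A match describes the letters and is no proof of binding.
Nctc1, chr7:142553126-142553314, an intron of a non-coding transcript.
Nctc1: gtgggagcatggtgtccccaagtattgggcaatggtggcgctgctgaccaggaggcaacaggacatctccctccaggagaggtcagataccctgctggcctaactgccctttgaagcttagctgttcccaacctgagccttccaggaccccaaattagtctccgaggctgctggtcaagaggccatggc
Mir22hg, chr11:75462502-75462690, intron 1 of the host gene of microRNA miR-22.
Mir22hg: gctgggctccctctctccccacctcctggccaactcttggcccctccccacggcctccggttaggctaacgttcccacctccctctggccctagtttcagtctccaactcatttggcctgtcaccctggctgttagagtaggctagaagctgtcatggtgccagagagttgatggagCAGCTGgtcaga
Dusp1, chr17:26508551-26508739, promoter.
Dusp1: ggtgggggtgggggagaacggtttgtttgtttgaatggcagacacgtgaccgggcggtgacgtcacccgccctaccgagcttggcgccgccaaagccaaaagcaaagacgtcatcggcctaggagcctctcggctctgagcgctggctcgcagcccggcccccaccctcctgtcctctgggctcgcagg
Gna11, chr10:81541799-81541987, intron 1.
Gna11: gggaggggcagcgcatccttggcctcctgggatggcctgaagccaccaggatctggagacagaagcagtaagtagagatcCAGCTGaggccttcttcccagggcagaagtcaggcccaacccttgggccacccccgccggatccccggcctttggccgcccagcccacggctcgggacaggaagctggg
Zfp36, chr7:28379257-28379445, promoter.
Zfp36: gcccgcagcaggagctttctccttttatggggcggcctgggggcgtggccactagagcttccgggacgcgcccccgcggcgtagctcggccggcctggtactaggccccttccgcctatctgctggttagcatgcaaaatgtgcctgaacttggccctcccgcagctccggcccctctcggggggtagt
Fhl3, chr4:124699833-124700021, promoter.
Fhl3: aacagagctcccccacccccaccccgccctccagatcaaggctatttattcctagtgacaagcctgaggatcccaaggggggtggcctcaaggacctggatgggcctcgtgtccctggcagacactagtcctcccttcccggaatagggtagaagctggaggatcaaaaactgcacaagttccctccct
Pvalb, chr15:78206425-78206613, promoter, with a MEF2 site.
Pvalb: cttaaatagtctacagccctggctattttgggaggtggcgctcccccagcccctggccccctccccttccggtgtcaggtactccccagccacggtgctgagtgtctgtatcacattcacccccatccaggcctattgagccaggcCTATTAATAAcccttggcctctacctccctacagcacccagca
Pax7, chr4:139747287-139747475, intron 8, with a NUR77 site and an E-box.
Pax7: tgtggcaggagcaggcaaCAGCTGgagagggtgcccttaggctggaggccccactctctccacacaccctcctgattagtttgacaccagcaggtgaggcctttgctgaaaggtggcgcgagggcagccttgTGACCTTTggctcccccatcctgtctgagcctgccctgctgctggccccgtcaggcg
Vgll2, chr10:51963747-51963935, intergenic, with a MEF2 site and an E-box.
Vgll2: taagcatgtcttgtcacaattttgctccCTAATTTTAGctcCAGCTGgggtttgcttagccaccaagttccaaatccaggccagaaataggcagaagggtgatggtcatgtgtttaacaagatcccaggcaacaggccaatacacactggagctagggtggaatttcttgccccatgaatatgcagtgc

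Most Quad-only peaks were weak. The score of a peak is its number of tags, the mapped read positions, scaled to library size. Their scores ran from 3.2 to 25.2 with a median of 4.61, which corresponds to 36 tags, whereas the other Quad peaks had a median of 7.94, or 62 tags. On the scale of score percentile within the Quad list, the median of the Quad-only peaks was 20.8 (quartiles 7.89 and 36.4) and that of the other Quad peaks 62.1. These scores are a description, since a score decides whether a peak is called. The Quad-only share fell from 71.4% in the lowest score decile of the list to 0.395% in the highest, where 16 of 4051 peaks were Quad-only. The lowest score in any other list was at most 3.63, and 886 Quad-only peaks (8.29%) scored at least 2 times that value. Among the Quad peaks at or above this higher limit, 5.02% (4.71% to 5.35%) were Quad-only. Peaks without a partner in the other lists were therefore a small part of the strong Quad peaks and the majority of the weak ones.

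**Figure D1:**
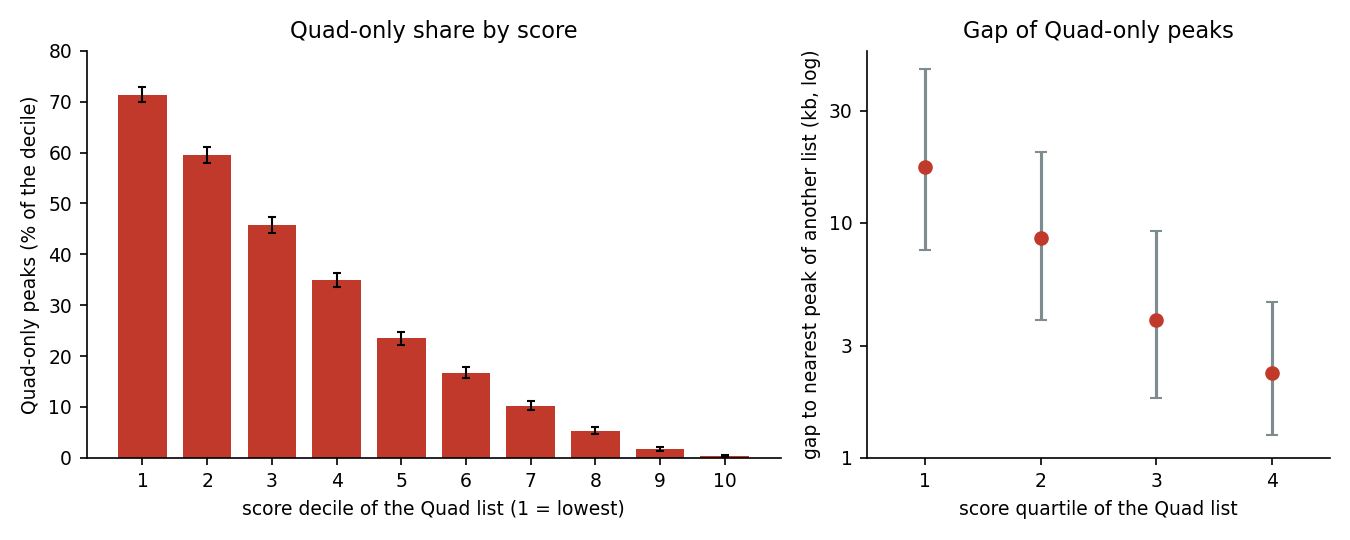
Left, the share of Quad-only peaks (%) in each score decile of the Quad list, with 95% Wilson intervals as error bars. Right, the median gap (points) and its quartiles (bars) from Quad-only peaks to the closest peak of EDL, Sol or Dia, on a log axis in kb, by score quartile of the Quad list. The share drops from 71.4% to 0.395%, and the median gap from 17272 bp to 2307 bp.

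The distance from a Quad-only peak to the closest peak found in EDL, Sol or Dia had a median of 11661 bp and exceeded 10 kb for 54.6% of the Quad-only peaks. This distance was part of the rule and is given as a description. The nearest peak belonged to EDL for 37.3%, to Sol for 33.7% and to Dia for 29.7% of the members, with ties counted for each. Strong and weak members differed in this respect. In the lowest score quartile of the list, the 6159 Quad-only peaks lay a median of 17272 bp from any peak of the other lists. In the highest score quartile, the 164 Quad-only peaks lay a median of 2307 bp away, and 54.3% of them were within 2500 bp. These 164 peaks also lay close to genes, with 64.6% within 5 kb of a transcription start site (TSS), against 10.1% in the lowest score quartile. The strong members thus lay closer to peaks of the other lists than the weak members did. Gaps above 10 kb were found for 11.6% of the strong and 67.0% of the weak members. Nearness to a TSS also went with score among the other Quad peaks, where promoters made up 7.6% of the lowest score quartile and 61.8% of the highest.

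Beside the 500 bp limit, the values changed little. Among peaks with a gap of 500 to 600 bp, which were Quad-only, the median score was 5.89 (n = 128), and it was also 5.89 among peaks with a gap of 400 to 500 bp, which were not (n = 180). Promoters made up 20.3% of the former and 18.3% of the latter. The nearest members inside the limit were a promoter peak of Mxi1 with a gap of 502 bp (score 9.48), an intron peak of Prss16 with 503 bp (score 4.35) and an intron peak of Fam46c with 503 bp (score 6.66). The nearest peaks outside it were assigned to Adcy6 with a gap of 500 bp (score 4.99), Slc25a33 with 500 bp (score 9.09) and Ldlrad3 with 499 bp (score 5.51).

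Quad-only peaks lay away from promoters. Promoters, which the authors counted from 1 kb before a TSS to 100 bp after it, held 586 of the 10683 members (5.49%, 5.07% to 5.93%), compared with 32.7% (32.2% to 33.3%) of the other Quad peaks. Promoter share rises with score, and the members scored low, so the other peaks were also weighted to the score deciles of the members. Their promoter share was then 11.4%, and the difference of the members from it was -5.95 percentage points (-6.65 to -5.24). Within score quartiles the difference was -4.51 points in the lowest (-5.49 to -3.58) and -35.5 points in the highest (-41.7 to -28.2). Neither value was weighted for score inside its quartile. In the highest, the members scored at most 25.2 and the other Quad peaks up to 222.1, so scores there were not matched. Promoters made up 21.9% of the members and 37.3% of the other peaks in score decile 8, and 28.6% and 53.5% in decile 9. In decile 10 they made up 4 of 16 members and 79.9% of the other peaks. The score-weighted difference kept its sign under all 12 alternative settings tried for it, between -4.88 and -15 points, and was -10.1 points when the EDL list was left out of the rule.

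Introns took up much of the balance. Introns held 48.3% of the Quad-only peaks (47.4% to 49.3%) and 33.3% of the others, and the score-weighted difference was 6.05 points (4.64 to 7.46). Intron 1 held 15.6% of all members, and 13.9% of the other peaks after weighting, a difference of 1.77 points (0.772 to 2.77) that accompanies the larger share of introns as a whole. Intergenic peaks made up 40.2% of the members and 28.7% of the other Quad peaks, but after weighting the difference was -1.03 points with an interval from -2.42 to 0.364, which includes 0. The median distance to the nearest TSS was 26978 bp for the members and 8893 bp for the other Quad peaks on assembled chromosomes. The weighted excess was largest between 1 and 10 kb from a TSS, at 4.06 points (3.02 to 5.1), and stood at 2.42 points (1.37 to 3.46) beyond 100 kb.

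**Figure D2:**
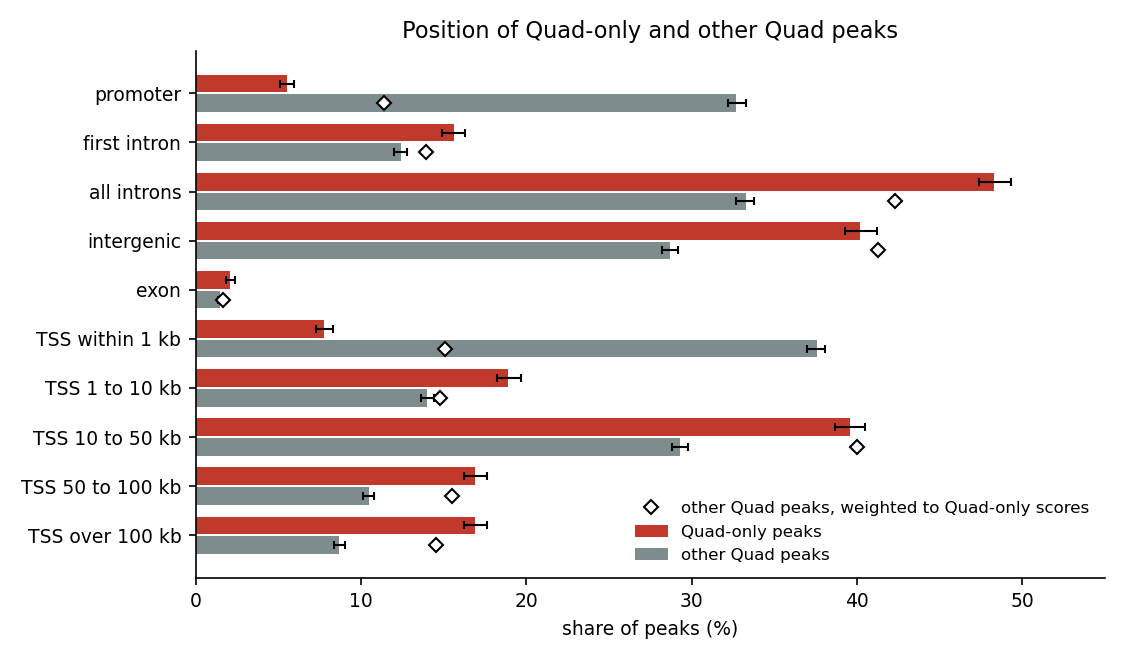
Share of peaks (%) by position for Quad-only peaks (red) and other Quad peaks (grey), with 95% Wilson intervals as error bars; open diamonds give the share of the other Quad peaks weighted to the score deciles of the Quad-only peaks. Promoters hold 5.49% of the Quad-only peaks, below the diamond at 11.4%, and introns hold 48.3%, above the diamond at 42.3%.

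The sequence of the members differed in the same direction. Their GC content was 51.1% ± 7.51 (SD over 10682 peaks on assembled chromosomes), and that of the other Quad peaks was 56.9% ± 9.33 (n = 29636). The criterion used here for a CpG island, a GC content of at least 50% and an observed-to-expected CpG ratio of at least 0.6 over the peak, was met by 6.25% of the members and 32.8% of the others. After weighting for score the difference was -5.67 points (-6.4 to -4.94), and with promoters left out it was -2.12 points (-2.7 to -1.54). Peaks with more than 50% of their bases in repeats made up 4.52% of the members and 1.12% of the others, a weighted difference of 2.56 points (2.06 to 3.07). This difference fell to 0.617 points (0.0841 to 1.15) among the top 20000 peaks of each list, where the CpG island difference was -13.8 points. Placement of reads was ambiguous for few members. In 24 of them (0.225%), more than 50% of the 42-base stretches, the length of a read, occurred more than once in the genome. Members were also scarce on chromosome X, where 98 of 599 Quad peaks (16.4%, 13.6% to 19.5%) were Quad-only, while the autosomes ranged from 23.1% on chromosome 19 to 29.4% on chromosome 6.

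The 12 highest-scored members included 3 promoters, 4 introns and 5 intergenic sites. Nctc1 is a non-coding transcript of the imprinted Igf2 and H19 region, and its intron held the highest-scored Quad-only peak, with a score of 25.2 (197 tags, percentile 97.8) at 5378 bp from its start. The promoter of Nctc1 was open in Quad (score 12.2) and in Sol (score 14.3), but the intron peak had no counterpart, with 5215 bp to the nearest Sol peak and 13977 bp to the nearest EDL peak. Plec encodes plectin, which links intermediate filaments to Z-discs and the membrane. A Quad-only peak at one of its promoters (chr15:76199791-76199979) scored 21.1 (165 tags), with no other list's peak within 7522 bp. The peak in intron 1 of Mir22hg scored 20.9 and lay 886 bp from the nearest Sol peak, and the promoter of this gene was open in all 4 muscles, with scores from 25.6 in Sol to 30.7 in Quad.

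The other peaks of this group lay at genes of varied function. Nr1d2 encodes the clock repressor REV-ERB beta, and its Quad-only peak (score 16.9) lay only 515 bp from the promoter peaks of each other list. Gna11, a G protein subunit, had a member in intron 1 with a score of 16.9. Intergenic members near Irf2bpl, a transcriptional regulator, near Rhof, a small GTPase, and near Atp2a1 each scored 16.6. The promoter of Tnrc18 scored 17.9 and that of Dusp1 17.3. The remaining 2 of the 12 highest-scored members were assigned to Mir101c on chromosome 9 (scores 22.2 and 19.3). They were 94.2% and 100% repeat sequence, and 50.7% and 68.2% of their 42-base stretches were not unique in the genome, so their reads cannot be placed with certainty.

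**Figure D3:**
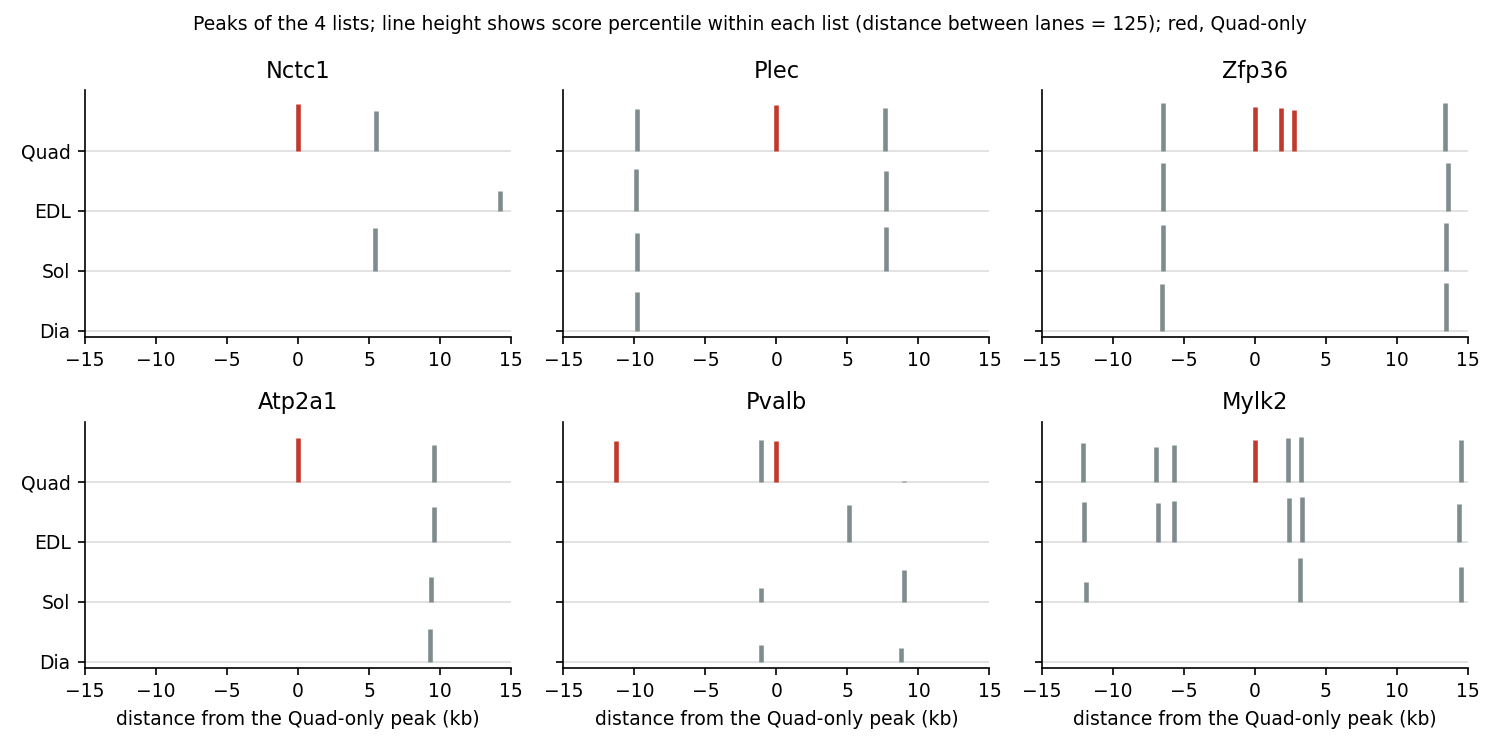
Peaks of the 4 lists within 15 kb of 6 Quad-only peaks, by distance along the chromosome from that peak (kb); each line is a peak, its height is the score percentile within its own list, and red marks Quad-only peaks. At Zfp36 the Quad lane holds 5 peaks, 3 of them Quad-only, and each other lane holds 2; at Mylk2 Quad and EDL share most peaks and the promoter peak at 0 is in Quad alone.

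Among the 586 promoter members, 517 (88.2%) belonged to genes with no promoter peak in any other list, and 40 belonged to genes with a promoter peak in all of them, while the remaining 29 had one in some of them. The 10 highest-scored promoter members were those of Plec, Tnrc18, Dusp1, Zfp36, Trim8, Fhl3, Mylk2, Eno3, Bcl6 and Cyr61, and none of these genes had a promoter peak in EDL, Sol or Dia. These absences follow in large part from the rule, which removed every Quad peak with a counterpart within 500 bp. A promoter as counted here reaches little farther than that, so both values are given as a description. Zfp36 encodes tristetraprolin, which speeds the decay of inflammatory mRNAs. Its promoter scored 16.4, and Quad-only peaks at 1999 bp and 2884 bp upstream scored 14.2 and 12.9. No peak of the other lists was assigned to Zfp36. Dusp1, which encodes a phosphatase of MAP kinases, had a promoter score of 17.3 in Quad while EDL had 6, Sol 3 and Dia 4 peaks elsewhere around the gene.

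Several of these promoters belong to contractile or metabolic genes. Mylk2, the kinase of skeletal myosin light chain, had a Quad-only promoter peak (score 14.0), although peaks at 2296 bp and 3258 bp inside the gene were present in EDL with scores of 16.1 and 17.4. Eno3 encodes the muscle enolase of glycolysis, and its promoter peak (score 13.8) was the only Quad peak assigned to the gene, with no peak of another list within 9374 bp. Fhl3, a LIM protein that regulates myogenic transcription, had a promoter peak with a score of 14.3 in Quad. The gene had a single peak in EDL at 974 bp (score 11.4) and one in Sol at 2970 bp (score 17.7), and these too had no counterpart in the other lists. Bcl6, a transcriptional repressor, scored 13.2, Cyr61, a matrix protein induced by YAP, scored 13.1, and Trim8, a ubiquitin ligase, scored 14.9, with 54.0% of its bases in repeats.

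The members were spread over 6595 genes, counted by nearest TSS. Of these, 4247 had 1 member and 176 had 5 or more. In the 12 genes with most members, the members lay mostly far from a start, with median distances from 24658 bp at Foxp1 to 256554 bp at Tns3. Rbfox1, a splicing factor of muscle and neurons, had 12 Quad-only peaks among 22 Quad peaks, with 10 peaks in EDL, 5 in Sol and 3 in Dia. Its members lay between 11160 bp and 381282 bp from a TSS and had a median score percentile of 19.4. Elmo1, which takes part in cell engulfment and migration, had 11 members among 22 Quad peaks. Mir7237 and Tns3, a focal adhesion protein, had 10 each. Bmper, a regulator of BMP signalling, had 9 members among 13 Quad peaks, against 3 peaks in EDL, 4 in Sol and 2 in Dia. The other genes of this group were Plpp3, 2010106C02Rik, Zfat, Wwox, Ldlrad4 and Foxp1 with 9 members each and Vgll4, a cofactor of TEAD factors, with 8 members that had the highest median percentile of the group, 56.8. Further genes, among them Maf, Rora and Celf2, also had 8 members, and Vgll4 was taken for its higher summed score.

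A smaller set of genes was represented by Quad alone. For 1151 genes (17.5% of the genes with a member) no peak of the other lists was assigned, and these held 1380 members, or 12.9% (12.3% to 13.6%). In all, 15575 genes had a Quad peak, and the like share over them was not computed. The rule removed Quad peaks with a counterpart within 500 bp, and the Quad list was the longest, so these values are given as a description. Among the genes with peaks in Quad alone, the non-coding loci 4930465M20Rik and 4930511E03Rik led with 6 and 5 peaks. Inhbb, a subunit of activin and inhibin, had 4 weak intergenic members with scores of at most 5.76. Mettl15 and Gm10845 had 4 members each, and Zfp36, Krt80, Hspb9 and Dock5 had 3 each that included the promoter.

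The spacing of the members along the chromosomes is given as a description, since it depends on how many peaks a set holds. Another Quad-only peak lay within 12500 bp of 20.3% of them (19.5% to 21%), while 52.2% of the other Quad peaks, a larger set, had another of their own kind as near. Any Quad peak lay within this distance of 52.4% of the members. Runs of 3 or more members, each within 12500 bp of the next, numbered 120 and held 376 members (3.52%). The longest run had 6 members over 35.1 kb at Ldlrad4 (chr18:67945674-67980746), and the next had 5 members over 18.4 kb at Hspb9, Kat2a and Rab5c (chr11:100712389-100730815). Runs of 4 were found at Kcnc4 and at Mapk14, the kinase p38 alpha, and 3 members at Zfp36 lay within 2.95 kb.

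Fast-fibre genes had 68 Quad peaks, of which 15 (22.1%, 13.8% to 33.3%) were Quad-only, near the 26.5% of all Quad peaks. Among the stronger Quad peaks the share stood above that of all peaks, at 16% (8.34% to 28.5%) against 6.51% in the upper 50% of the list and 14.3% (7.1% to 26.7%) against 5.02% at the higher score limit. Among the top 20000 peaks of each list it was 16% (8.34% to 28.5%), an interval that includes the 9.64% of all peaks. The shares of gene lists, here and below, were not weighted for score. Over all Quad peaks, the Quad-only share fell from 16.7% in score decile 6 to 0.395% in decile 10. Whether the excess among stronger peaks would remain at matched scores was therefore not tested for the fast-fibre genes. The members of this list had a median score percentile of 53.3, compared with 20.8 for all members, and 4 of 15 were in the highest score quartile of the list, compared with 1.54% of all members. Atp2a1 encodes SERCA1, the calcium pump of fast fibres. Its single Quad peak lay 2797 bp upstream and scored 16.6, and no peak was assigned to the gene in EDL, Sol or Dia. Pvalb encodes parvalbumin. The promoter scored 12.7 and an intron peak scored 12.6 in Quad alone, beside a shared intron peak with a score of 13.8 (5.35 in Sol, 6.24 in Dia). A second shared peak, farther upstream, had the lower score in Quad, at 3.84 (8.98 in Sol, 5.84 in Dia). EDL had 1 peak at Pvalb, 5215 bp upstream, with a score of 10.8. The paper shows a super-enhancer, a long domain rich in enhancer marks, at Pvalb in glycolytic muscles. A promoter peak that was not called in EDL therefore does not show closed chromatin there. Casq1, the calcium store protein of fast fibres, had a Quad-only peak 1596 bp upstream (score 14.0), 649 bp from a peak of another list at its open promoter.

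The regulators of the fast programme had members too. Eya1, a transcriptional coactivator, had 4 members annotated to introns between 65220 bp and 101678 bp away, of which the strongest scored 8.58. Tbx15, which promotes glycolytic fibres, had 3 members with scores from 4.23 to 5.38. Myh1, a fast myosin heavy chain, had a member 4772 bp downstream of its start (score 9.35). Myh1 and its neighbours Myh2 and Myh4 are close relatives in 1 cluster, so the assignment of a peak to a single myosin gene rests on distance only.

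Glycolysis and glycogen genes had a low share of members, 8 of 73 Quad peaks (11%, 5.66% to 20.2%), and with promoters left out it was 13.0% (6.42% to 24.4%) against 33.6% over all non-promoter Quad peaks. The deficit was absent among stronger peaks, with 7.27% (2.86% to 17.3%) against 6.51% of all peaks in the upper 50% of the list and 9.09% against 9.64% among the top 20000 of each list. The median score percentile of these members was 48.2, and 3 of 8 were in the highest score quartile. Pygm, muscle glycogen phosphorylase, had a Quad-only peak 1711 bp upstream (score 15.2) beside a promoter peak that was open in all 4 muscles, with scores from 11.4 in Dia to 19.3 in Quad. Pfkm, the phosphofructokinase of muscle, had one in an intron 2130 bp from its start (score 10.5), and Hk2, hexokinase, had one at 10462 bp (score 7.68). Without the EDL list in the rule, the Quad-only share rose to 35.6% for glycolysis genes and 45.6% for fast-fibre genes, beside 37.2% for all Quad peaks. A part of the Quad peaks at these genes thus had a partner in EDL and in no other list. Ppp1r3a, which targets a phosphatase to glycogen, had 2 members with scores of at most 5.51.

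Slow-fibre genes held 13 members among 68 Quad peaks (19.1%, 11.5% to 30.0%), an interval that includes the 26.5% of all Quad peaks. The strongest was at Ankrd2, a stretch-responsive protein of slow fibres, with a score of 8.32, and Mb, myoglobin, had one with 7.3. Esrrg, an oestrogen-related receptor of oxidative muscle, had 4 members among 8 Quad peaks with scores of at most 4.61, while Sol had 10 peaks at the gene. Ppargc1a, a coactivator of mitochondrial genes, had 2 members among 11 Quad peaks with scores of at most 4.61. In mitochondrial and lipid oxidation genes, 9 of 56 Quad peaks (16.1%, 8.69% to 27.8%) were members. The promoter of Ppargc1b, a relative of Ppargc1a, was a Quad-only peak with a score of 12. Pdk4, which restrains glucose oxidation, had 3 members between 5868 bp and 11008 bp from its start with scores of at most 6.15, while its promoter was open in all 4 muscles with scores from 16 in Dia to 22.1 in Sol. Idh3a, a subunit of isocitrate dehydrogenase, and Cox4i1, a subunit of cytochrome c oxidase, had 2 members each, with highest scores of 9.35 and 6.4.

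Limb position and Hox genes, which carry the developmental address of a muscle, had 20 members among 65 Quad peaks (30.8%, 20.9% to 42.8%), near the 26.5% of all Quad peaks. Hoxa7 had a member 994 bp from its start (score 9.73), and 2 further Hox members were assigned to Hoxc4 (score 7.17) and Hoxc13 (score 4.1). The Hoxb and Hoxd clusters had none. Tbx4 and Pitx1, which mark the hindlimb, had 1 weak member each (scores 3.97 and 4.35). Tbx5, which marks the forelimb, had 3 members and no other peak in any list, but these lay 33991 bp to 82126 bp from its TSS and scored at most 5.63. Shox2, a homeobox gene of proximal limb elements, had a Quad-only promoter peak (score 6.4) and 2 distant members, with no peak in the other lists. Irx3, a homeobox gene, had 2 members among 10 Quad peaks, both more than 100 kb from a TSS.

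Fibre-type and myogenic regulators held 65 members among 252 Quad peaks (25.8%, 20.8% to 31.5%), near the 26.5% of all Quad peaks. Maf, a factor of fast fibres, had 8 members among 21 Quad peaks with a highest score of 7.94, and Rora, a nuclear receptor, had 8 among 23 with a highest score of 7.04. Sox6, a repressor of slow genes, had 6 among 17 with a highest score of 4.35. The peaks printed above for Pax7, the factor of satellite cells, and Vgll2, a cofactor of TEAD factors in muscle, were weak, with scores of 4.48 and 3.97. Splicing regulators had 41 of 120 Quad peaks (34.2%, 26.3% to 43.0%), an interval that includes the 26.5% of all Quad peaks. With promoters left out the share was 37.7% (29.1% to 47.2%) against 33.6% of all non-promoter Quad peaks. These members had a median score percentile of 23.4, with 12 at Rbfox1, 8 at Celf2, 7 at Mbnl1 and 5 at Mbnl2. Insulin, IGF and growth signalling genes had 32 of 107 (29.9%, 22.1% to 39.2%), an interval that also includes the 26.5%. Igf1, the growth factor IGF1, had 7 members among 8 Quad peaks, the strongest at 1931 bp from its start (score 9.09), against 2 peaks in EDL, 2 in Sol and 1 in Dia. Pik3r1 had 6 members, Tbc1d1, a regulator of glucose uptake, 4, and Irs2 3.

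Giant sarcomere, Z-disc and dystrophin complex genes had 22 members among 114 Quad peaks (19.3%, 13.1% to 27.5%), an interval that includes the 26.5% of all Quad peaks. Utrn, which encodes utrophin, had 4 with a highest score of 8.45. Myom2, an M-band protein of fast fibres, had 3 that included a promoter (highest score 9.09), and Sntb1 had 2. Neuromuscular junction genes had 9 members among 35 (25.7%, 14.2% to 42.1%), near the share of all Quad peaks. Ncam1 had 5 of them with scores of at most 4.61, Dok7 a promoter peak (score 7.3), Musk 1 (score 5.38), and Chrnd, the delta subunit of the acetylcholine receptor, its only Quad peak (score 5.12).

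**Figure D4:**
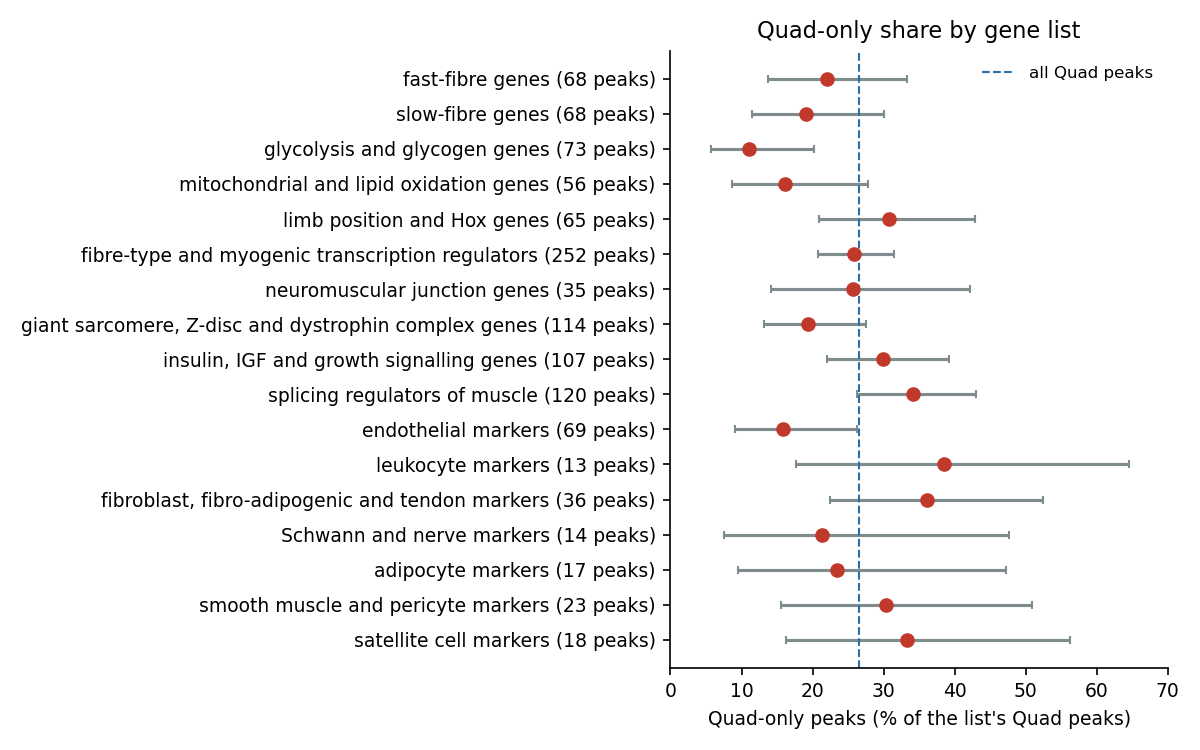
Share of Quad-only peaks (%) among the Quad peaks assigned to each of 17 gene lists, with 95% Wilson intervals as bars; the dashed line marks all Quad peaks at 26.5%. The intervals of 15 lists include the line, and those of the glycolysis list (11%) and the endothelial list (15.9%) lie below it. No list lies above it in the full peak list.

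Quad powder also holds nuclei of other cell types. The shares of members at their marker genes are set beside the 26.5% of all Quad peaks, which every interval but the endothelial one includes. Fibroblast, fibro-adipogenic and tendon markers had 13 of 36 Quad peaks (36.1%, 22.5% to 52.4%), leukocyte markers 5 of 13 (38.5%, 17.7% to 64.5%), smooth muscle and pericyte markers 7 of 23 (30.4%, 15.6% to 50.9%), satellite cell markers 6 of 18 (33.3%, 16.3% to 56.3%), adipocyte markers 4 of 17 (23.5%, 9.56% to 47.3%), Schwann and nerve markers 3 of 14 (21.4%, 7.57% to 47.6%) and endothelial markers 11 of 69 (15.9%, 9.14% to 26.3%). The total number of peaks at fibroblast markers was 36 in Quad, 28 in EDL, 17 in Sol and 7 in Dia, and at leukocyte markers it was 13, 8, 4 and 5. In the same order it was 69, 60, 64 and 38 at endothelial markers and 14, 11, 15 and 7 at Schwann markers. At adipocyte markers it was 17, 13, 10 and 13, at smooth muscle markers 23, 15, 14 and 10, and at satellite cell markers 18, 9, 12 and 5. The full lists differed in length too, with 40337, 30136, 28784 and 21582 peaks. Most of these members were weak, and their median score percentiles ran from 11.6 for leukocyte to 36.4 for Schwann markers. Col3a1, a fibrillar collagen, had 3 members among 5 Quad peaks, with 4 peaks in EDL and none in Sol or Dia. Tcf21, a fibroblast factor, and Mkx, a tendon factor, had 2 members each and no peak elsewhere, with scores of at most 5.25. Cd3e of T cells, Cx3cr1 of monocytes and Mrc1 of macrophages had 1 each, with scores of at most 5.25. The satellite cell genes Myf5 and Pax3 had members with scores of at most 4.61. Sox18, an endothelial factor (score 10.4), and Sdc4 (score 10.2) were the only markers with a member in the highest score quartile. Among the top 20000 peaks, the satellite cell share was 44.4% (18.9% to 73.3%) and the smooth muscle and pericyte share 33.3% (9.68% to 70%), against 9.64% of all. In the upper 50% of the list these shares were 22.2% (6.32% to 54.7%) and 0% (upper limit 39%), against 6.51% of all. Both lists are short, with 18 and 23 peaks in the full Quad list, so these shares rest on few peaks. The endothelial share was 5.71% (1.58% to 18.6%) in each of these settings, an interval that includes the share of all peaks. With promoters left out of the full list, the sarcomere list (20.2%, 13.5% to 29.2%) also lay below the 33.6% of all non-promoter Quad peaks. Whether the makeup of the tissue differed between the libraries was not tested.

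Genes of the acute response were examined after the highest scores had been seen. Among 30 immediate early genes, 26 of 158 Quad peaks (16.5%, 11.5% to 23.0%) were Quad-only. The 3 members at Zfp36 and the promoters of Dusp1 and Cyr61, which prompted the list, were those in the highest score quartile. Jun had 3 members and Klf4 5, all with scores of at most 5.51. Among 26 glucocorticoid and clock target genes, 18 of 128 Quad peaks (14.1%, 9.08% to 21.1%) were members, with Nr1d2 and the promoter of Bcl6 in the highest score quartile. In the full list, the share of members at both lists was below the 26.5% of all Quad peaks. In the upper 50% of the list the shares were 8.74% (4.67% to 15.8%) and 5.68% (2.45% to 12.6%), against 6.51% of all peaks. Among the top 20000 of each list they were 11.7% (6.79% to 19.3%) and 6.9% (3.2% to 14.2%), against 9.64%. The intervals of these stronger peaks include the share of all peaks, so the deficit was not seen among them.

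Motifs were then counted in the members and in sequence of the same width 2 kb further along the plus strand, called downstream here. The intervals of these differences treat members and windows as independent sets, although each window belongs to a member. The E-box was present in 19.4% of the Quad-only peaks (18.6% to 20.1%) and in 9.16% of the downstream windows, a difference of 10.2 points (9.28 to 11.1). The AP-1 site TGANTCA was present in 10.1% and 5.7%, the MAF site TGCTGAC in 6.05% and 2.96%, and MEF2 in 2.74% and 1.5%. NUR77 was found in 1.47% and 1.08% (difference 0.393 points, 0.0924 to 0.698). The TEAD site GGAATG was in 11.8% and 9.92%. NFY (CCAAT) went the other way, with 21.2% and 23.7%, a difference of -2.5 points (-3.62 to -1.38), and the intervals of RUNX, ERR and FOXO included 0. The E-box differed most.

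Compared with the other Quad peaks at the same scores, the members held fewer MEF2 sites. MEF2 was present in 2.74% of the members and in 3.69% of the other peaks, or 4.45% of them after weighting for score. The difference of the members from the weighted share was -1.71 points (-2.25 to -1.17). With promoters left out the difference was -1.96 points (-2.54 to -1.38). Among the top 20000 peaks of each list it was -0.668 points, with an interval from -1.63 to 0.299 that includes 0. The weighted difference for the E-box was -1.21 points (-2.34 to -0.0792), and it turned positive, at 0.24 points (-2.12 to 2.6), in the upper 50% of the list. For NUR77 it was -0.0403 points (-0.382 to 0.301), so no difference from the other Quad peaks was detectable. Without the EDL list in the rule, the NUR77 difference was above 0, at 0.499 points (0.18 to 0.819). MAF was the only motif of the 15 with a positive difference whose interval did not include 0, at 0.846 points (0.199 to 1.49), and with promoters left out this interval included 0 (-0.0435 to 1.32), as it did under most other settings. The SP1 site GGGCGGG and the ETS site CCGGAAGT, which are common in CpG-rich promoters, differed by -2.46 points (-3.09 to -1.83) and -0.673 points (-0.905 to -0.441), and NFAT (TGGAAA) by -1.46 points (-2.58 to -0.347). With promoters left out the ETS difference was -0.107 points, with an interval from -0.285 to 0.07, and the NFAT difference among the top 20000 peaks was -0.166 points (-2.04 to 1.71).

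**Figure D5:**
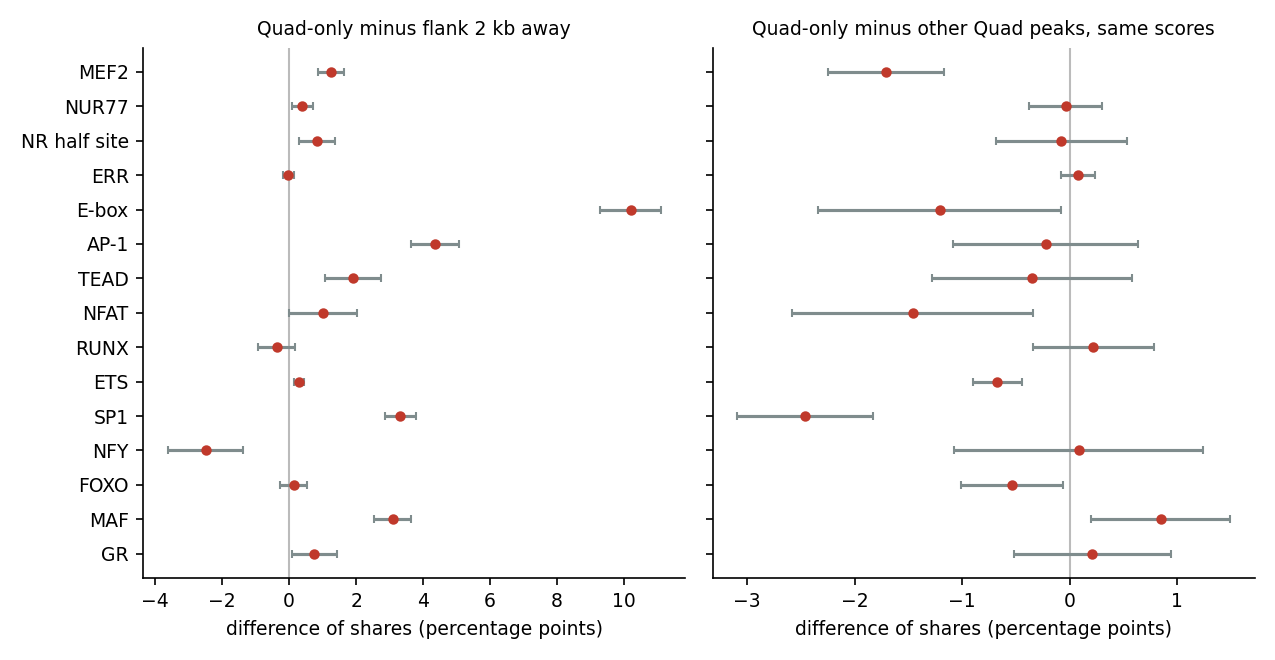
Difference in the share of peaks with a motif (percentage points, 95% intervals) between Quad-only peaks and windows 2 kb downstream of them (left), and between Quad-only peaks and the other Quad peaks weighted to the same scores (right). The E-box stands 10.2 points above the downstream windows, and MEF2 lies 1.25 points above them but, at -1.71 points, below the other Quad peaks.

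The remaining motifs showed small differences from the other Quad peaks. FOXO (TGTTTAC) differed by -0.538 points (-1.01 to -0.0649), and its interval included 0 under 5 alternative settings. The intervals of the nuclear receptor site AAGGTCA, the ERR site TCAAGGTCA, AP-1, TEAD, RUNX (TGTGGTT), NFY and GR (ACANNNTGT) all included 0. AAGGTCA is part of the NUR77 and ERR letters, so these counts overlap.

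The same rule was applied to each other list. It kept 2892 of 30136 EDL peaks (9.6%, 9.27% to 9.93%), 4007 of 28784 Sol peaks (13.9%, 13.5% to 14.3%) and 2112 of 21582 Dia peaks (9.79%, 9.4% to 10.2%), so the Quad share of 26.5% was the highest among these lists of unequal length. The muscle-only peaks were weak in every list, with median score percentiles of 15.4 in EDL, 14.5 in Sol and 13.2 in Dia, beside 20.8 in Quad. They were poor in promoters in every list too, with 3.91% in EDL, 3.47% in Sol and 8.19% in Dia, beside 5.49% in Quad. The share of muscle-only peaks in the highest score quartile of their list was 1.54% in Quad, 1.31% in EDL, 1.1% in Sol and 0.237% in Dia. When each list was restricted to its top 20000 peaks by score, the Quad-only share fell to 9.64%. The shares of EDL, Sol and Dia were not computed at that length, so this value cannot be set beside their full-list shares.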

How the data were processed

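ATAC-seq of 4 muscles was analysed, with 1 deposited peak list each. Per the labels and the study's methods, the authors pulverised frozen muscle, transposed nuclei, sequenced 42-bp read pairs, aligned them to mm10 with Bowtie2, and used HOMER to keep at most 1 tag per start position, to find fixed-width peaks in each library, and to annotate them. How many samples each library pools, the Tn5 offset and any removal of mitochondrial reads are not given in the sources used here. The deposited score of a peak is its tag count scaled by the authors to library size, and it was ranked within a list. Scores of different lists are set side by side at single loci as deposited, with no test. The deposited fraction of tags near a peak's centre was read and is not compared here. The distance to the TSS and the nearest gene are those of the deposited lists. A peak absent from a list was not called in that library, which does not show closed chromatin.

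Gaps were measured edge to edge within a chromosome. Shares carry 95% Wilson intervals and differences Newcombe intervals, and score-weighted differences use the score deciles of the Quad list with a stratified normal interval. No p-value was computed. The detailed annotation column held no values, so repeats were taken from lower-case bases of the RefSeq sequence (GRCm38.p6) and CpG islands from base composition. Motifs were searched on both strands, on 10682 of the 10683 members. The members, gene lists and motifs were chosen with earlier results of these data known. The text names the 12 highest-scored members, the 10 highest-scored promoter members, the 12 genes with most members, the 10 genes with most peaks in Quad alone, up to 4 genes of each list by number of members, and the 3 peaks on each side of the gap limit. Some items that these rules select are not reported here. Other genes of the lists named in the text were chosen after their values were seen. The functions were tested on simulated data. Alternatives were other gap limits, shorter lists, leaving out a list, repeats or promoters, and other windows. Python 3.11.15, pandas 2.3.3 and numpy 2.4.6 were used.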

Additional observations from a re-analysis of the deposited data

How the results depend on the processing

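The Quad-only share of 26.5% moved with the gap limit, to 30.3% for overlap only, 25.2% at 1000 bp and 22.9% at 2500 bp. It was 9.64% among the top 20000 peaks of each list and 6.51% in the upper 50% of the Quad list. It was 37.2% without the EDL list, 31.3% without Sol and 28.4% without Dia, and 25.8% without repeats. Among peaks scored at least 2 times the other lists' limit it was 5.02%. In that order of settings, where the value moved, the median score percentile of 20.8 became 23.4 for overlap only, 18 at 2500 bp, 17.3 for the top 20000, 19.9 in the upper 50%, 25.8 without EDL, 20.1 without repeats and 19.8 at the higher score limit. The share of members with another member within 12500 bp, 20.3%, became 22.7%, 19.1% and 17.9% at the 3 other gap limits, 13.5% for the top 20000, 14.8% in the upper 50%, 30.5% without EDL, 24.2% without Sol, 21.9% without Dia and 12% at the higher score limit. The fast-fibre share of 22.1% became 45.6% without EDL. The weighted promoter difference of -5.95 points kept its sign and its side of 0 throughout, but was -15 points for the top 20000, -11.8 in the upper 50%, -10.1 without EDL and -12.5 at the higher score limit. In the same order the CpG island difference of -5.67 was -13.8, -10.3, -10.4 and -11.5, and the repeat difference of 2.56 was 0.617, 0.654, 2.22 and 0.926.

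Among motifs, weighted differences changed for MEF2 in the top 20000 (-0.668 points) and for NUR77 in the upper 50% (-0.778) and without EDL (0.499, a change of sign). Signs also changed for AAGGTCA without EDL (0.715), for the E-box in the top 20000 (1.02), the upper 50% (0.24) and at the higher score limit (0.856), and for NFY in the upper 50% (-4.09) and at the higher score limit (-3.6). Differences were no longer clear of 0 for ETS without promoters, NFAT in 3 settings, FOXO in 5, the E-box in 4 further settings and MAF in 9. Differences became clear of 0 for AAGGTCA in the upper 50% (-1.27) and GR without EDL (1.06). The cause of these changes was not tested. Leaving out peaks with mostly non-unique 42-base stretches and the higher score limit were chosen after seeing the data. Of 103 values of the main results under alternatives, 73 kept their direction and their side of 0 or stayed within the main interval, 27 moved, 1 gained and 1 lost an interval away from 0, and 1 changed sign. No paired analysis of the muscles was possible because each muscle has only replicate 1. With 1 library per muscle, animal-to-animal spread is unknown, and a peak close to the lowest score of a list rests on few tags.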
